A study of Mus musculus with 20 samples.

Results

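The genes described here are 9 genes of the early ovarian programme: Fst, Wnt4, Rspo1, Bmp2, Nr0b1, Foxl2, Msx1, Sprr2d and Irx3. They were taken by symbol from the gene probes of a 2-colour Agilent array, where 10 of 41174 gene probes carried these names, and they are 9 of 27670 names on the array. Msx1 had 2 probes and every other gene 1. Probes had to be well above background in the gonad channel on 4 or more of 5 arrays in some group to be tested, which kept 8 of the 9 genes and 23849 genes in all.

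In the undecided gonad of the mouse embryo the same supporting cell precursors can become Sertoli cells of a testis or granulosa cells of an ovary. In XX gonads the secreted factors WNT4 and R-spondin 1 hold beta-catenin signalling active, and follistatin and BMP2 are among the genes switched on with it, while in XY gonads SRY and SOX9 turn the cells to the testis pathway and the ovarian genes are held down. FOXL2 is a transcription factor of granulosa cells that keeps the ovarian identity.

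Every gonad array held RNA from XY gonads of embryonic day 11.5, staged at 17 to 21 tail somites, and the genotypes were (B6x129S1)F1, (129S1xB6)F1, C57BL/6J and 129S1/SvImJ, with 5 arrays each. The F1 embryos are the reciprocal hybrids of both inbred strains. Each array held 1 pair of gonads, dissected free of the mesonephros, labelled with Cy5, against 1 common Cy3 pool. The pool mixed gonads (4 XY and 3 XX pairs) with whole embryos (4 XY and 2 XX). Their parents were Sox9-ECFP(C57BL/6J) and CD-1 mice. A value is thus the gonad level relative to this mixture and not an absolute level.

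Of the markers of the undecided gonad, 6 of 6 were well above background on all 20 arrays, and on the log2 ratio scale 5 of them, Nr5a1, Wt1, Gata4, Lhx9 and Emx2, lay above the pool on every array, from 0.58 for the lowest Nr5a1 value to 4.43 for the highest Wt1 value. The last, Cbx2, lay below the pool on every array, from -1.48 to -0.50. The mean ratio of 7 mesonephros and duct markers ran from -0.40 to 0.54 over the arrays. Cdh16 had the widest range among them, from -0.43 to 4.1, and the highest value of any other was 1.08, for Pax8. Of the Y-linked genes, Ddx3y, Eif2s3y and Kdm5d were well above background on all 20 arrays and Uty on 11. Xist, which is expressed from the inactive X chromosome of XX cells, was above background on all 20 as well, with log2 ratios from -0.31 to 0.24 against a pool that held XX tissue. The source of the signal on the Xist probe was not tested. The share of gene probes above background ran from 77.9% to 87.9% per array, and the median net Cy5 signal ranged from 94.1 to 149 in (B6x129S1)F1, from 85.7 to 201 in (129S1xB6)F1, from 111 to 184 in C57BL/6J and from 169 to 203 in 129S1/SvImJ. Arrays stood on 5 slides: slide 1 held strains only, slide 5 hybrids only, and 3 slides held all 4 groups. Letters in the sample names may mark litters, which the labels do not say; 4 of the 5 C57BL/6J embryos (H1 to H4) share a letter and K2 has another.

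The probes are 60 bases long and a value rests on what they bind. Those of Fst, which carried the clearest difference, of Wnt4 and of Foxl2, whose difference was nearest 0, are shown in full from the deposited array files, 5′ to 3′; RefSeq places these genes on chromosomes 13, 4 and 9.
Fst probe A_51_P381821: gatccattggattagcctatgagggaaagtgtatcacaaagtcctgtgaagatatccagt
Wnt4 probe A_51_P130475: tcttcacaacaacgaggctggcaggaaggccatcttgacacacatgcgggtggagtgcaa
Foxl2 probe A_51_P344790: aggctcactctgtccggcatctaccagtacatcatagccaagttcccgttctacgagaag
Whether the strains differ in sequence under any probe was not tested.

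RefSeq promoters of assembly GRCm38.p6, 300 bases each around the gene start, were matched by symbol for 7 of the 9 genes. The TATA box letters TATAAA, searched on both strands, were found in 2 of these 7, Nr0b1 and Sprr2d, against 13.6% of 32851 promoters of the same length. The TCF/LEF core, as CTTTGAT or CTTTGAA on either strand, was in 0 of 7, against 8.65% of all promoters. The nuclear receptor motif AGGTCA, on either strand, was in 1 of 7, Nr0b1, against 16.3%. Nr0b1 and Sprr2d had the highest Pearson r of the pairs of genes tested, 0.75 for deviations from group means. It was 0.46 without the 2 arrays farthest out on Nr0b1. A link of this r to the TATAAA of both genes was not tested. The 120 bases before the start are printed for these genes, with TATAAA in capitals.
Nr0b1, chrX:86191655-86191774, plus strand: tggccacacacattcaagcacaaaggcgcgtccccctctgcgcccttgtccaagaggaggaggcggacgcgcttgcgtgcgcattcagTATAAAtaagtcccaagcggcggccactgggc
Sprr2d, chr3:92339020-92339139, plus strand: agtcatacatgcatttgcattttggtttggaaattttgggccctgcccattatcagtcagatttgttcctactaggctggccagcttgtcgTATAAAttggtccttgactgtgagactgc
A match of these letters is a description of the window and says nothing of a factor bound there. TATAAA and AGGTCA were added after the promoters had been seen.

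Of the 8 genes tested, Fst differed most clearly, being high in C57BL/6J XY gonads. Fst encodes follistatin, a secreted protein that binds and blocks activins. Its log2 ratios were -0.61, -0.73, -0.80, -0.51 and -0.57 in (B6x129S1)F1, and -0.49, -0.49, -0.38, -0.37 and -1.01 in (129S1xB6)F1. In C57BL/6J they were 0.39, 0.42, 0.97, 0.79 and -0.20, against -0.42, -0.94, -0.77, -0.85 and -0.54 in 129S1/SvImJ. The 5 C57BL/6J embryos lay above all 15 embryos of the other groups, although K2, at -0.20, lay closer to the other groups than to the remaining C57BL/6J embryos. The strain difference was 1.18 ± 0.17 (log2, SE of the fit, 5 against 5 arrays), a 2.26-fold higher level in C57BL/6J (limma, adjusted p = 0.00018). It was 1.35 without K2, and within slides 1 to 4 it was 1.31, 1.37, 0.57 and 1.33. On the scanner software's processed signals, where the group means were -0.93 in (B6x129S1)F1, -0.71 in (129S1xB6)F1, 0.68 in C57BL/6J and -0.94 in 129S1/SvImJ, the difference was 1.62, or 3.08-fold (limma, adjusted p = 7e-04). With no background subtraction it was 0.52 (adjusted p = 0.00044). The other values in the text carry an offset of 50, which draws ratios of dim spots toward 0. The RNA of whole gonads was measured, so fewer cells of a type cannot be told apart from less RNA per cell. The mean of the 4-gene Sertoli list ran from 0.51 to 1.84 in C57BL/6J, against -0.28 to 1.73 in 129S1/SvImJ, with 0 of 4 genes called, and that of the 6-gene undecided gonad list from 1.98 to 2.48, against 1.51 to 2.06, with 1 of 6 called (Emx2, 0.99). The mean of the adrenal and steroidogenic list, of which 4 of 5 genes were tested, did not overlap between the strains. It ran from 0.56 to 1.03 in C57BL/6J, against 1.10 to 1.50 in 129S1/SvImJ. Of its genes 2 were called and fell in C57BL/6J, Hsd3b1 (-1.16) and Star (-0.72). Over all genes tested 5.28% were called between the strains, 3.1% higher and 2.18% lower in C57BL/6J. The arrays of the strains did not overlap for 5.16% of single genes. Of 7 mesonephros and duct markers only Lhx1 was called, which fell (-0.53), while 4 of the 7 lay above 0. Of 7 germ cell markers only Dazl was called, which fell (-0.90), while 2 of the 7 lay above 0. None was called among 6 endothelial, 6 erythroid and 6 macrophage markers, of which 0, 6 and 5 lay above 0, against 53.1% of all genes. Their part in the result was not tested.

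In the hybrids Fst lay near 129S1/SvImJ. The F1 mean was 2.10-fold lower than C57BL/6J (-1.07 ± 0.15, limma, adjusted p = 0.00034) and differed from 129S1/SvImJ by 0.11 ± 0.15 (adjusted p = 0.82), with a 95% confidence interval of -0.21 to 0.42. Against the mean of both strains the hybrids were lower by a log2 difference of -0.48 ± 0.12, which did not pass after adjustment (limma, adjusted p = 0.16). This last difference passed in 1 of 20 fits that each left out 1 array, the fit without K2 (-0.57, limma, adjusted p = 0.016). It passed under none of 12 other settings (limma, adjusted p from 0.081 to 0.53), and with slide as a block it was -0.34. The reciprocal crosses differed by -0.10 ± 0.17. Fst was also called by the F test over the 4 groups (adjusted p = 0.00044), where 3.66% of all genes were called.

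Of the 8 genes tested, Fst was the only 1 called between the strains, where 5.28% of all 23849 genes were called, 3.1% higher and 2.18% lower in C57BL/6J. The values of 7 of the 8 were above 0, as were 53.1% of all genes tested, and their median was 0.54 against 0.01 over all genes tested. The arrays of the strains did not overlap for 2 of the 8, Fst and Nr0b1, against 5.16% of all genes (3.08% with C57BL/6J above). On the processed signals those of Nr0b1 overlapped. An unadjusted p under 0.05 was found for 4 of the 8, against 14.8% of all genes. Within slides 1 to 4 the median of the 8 was 0.63, 0.71, 0.39 and 0.38.

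**Figure D1:**
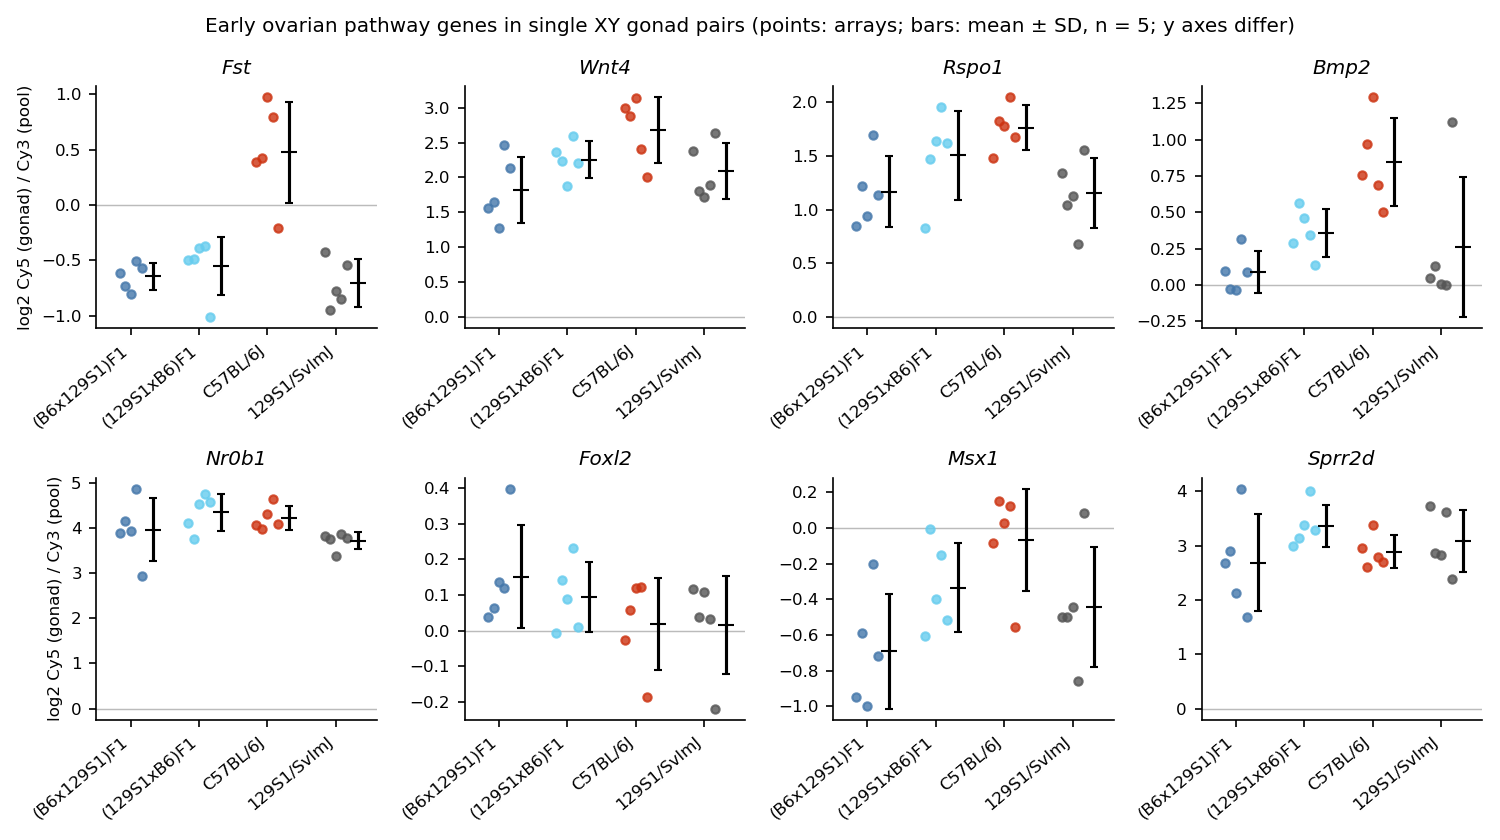
Log2 ratio of Cy5 (1 XY gonad pair) over Cy3 (common pool) for the 8 tested genes, 1 point per array, in (B6x129S1)F1, (129S1xB6)F1, C57BL/6J and 129S1/SvImJ, with the group mean and SD (n = 5) beside the points; the y axes differ. For Fst the C57BL/6J arrays, from -0.20 to 0.97, lie above every other array.

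Of the WNT side of the pathway, Wnt4 and Rspo1 were measured with bright probes. Wnt4, the WNT ligand needed for ovarian development, had log2 ratios of 2.99, 2.88, 3.14, 2.40 and 2.00 in C57BL/6J, against 2.38, 1.80, 1.72, 1.90 and 2.64 in 129S1/SvImJ. The strains overlapped, because 2 embryos of 129S1/SvImJ reached the range of C57BL/6J, and H4 and K2 lay within the range of 129S1/SvImJ. The difference of 0.59 ± 0.24 (1.51-fold) did not pass (limma, adjusted p = 0.23). Within slides 1 to 4 it was 0.92, 1.08, 0.28 and -0.24. The hybrid groups averaged 1.82 ± 0.47 in (B6x129S1)F1 and 2.25 ± 0.26 in (129S1xB6)F1, against 2.68 ± 0.47 in C57BL/6J and 2.09 ± 0.40 in 129S1/SvImJ (SD, n = 5 each). F1 minus C57BL/6J was -0.65 ± 0.21 (adjusted p = 0.15).

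Rspo1, the secreted R-spondin that strengthens WNT signals, varied little within C57BL/6J. Its log2 ratios were 1.48, 1.82, 1.78, 2.05 and 1.67 in C57BL/6J, against 1.34, 1.05, 1.13, 0.68 and 1.55 in 129S1/SvImJ. Only the highest 129S1/SvImJ embryo, G3, overlapped C57BL/6J. The difference was 0.61 ± 0.20 (1.53-fold) and did not pass (limma, adjusted p = 0.09). It passed in 1 of 10 fits that each left out 1 array, the fit without G3 (0.71, limma, adjusted p = 0.047). Under 13 other settings it did not pass (limma, adjusted p from 0.07 to 0.25). In the hybrids Rspo1 averaged 1.17 ± 0.33 in (B6x129S1)F1 and 1.50 ± 0.42 in (129S1xB6)F1 (SD, n = 5 each).

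Bmp2, a secreted ligand of the BMP family that lies downstream of WNT4 in the ovary, was read by 1 dim probe printed in 10 spots. Its log2 ratios were 0.096, -0.025, -0.036, 0.32 and 0.087 in (B6x129S1)F1, and 0.29, 0.57, 0.46, 0.35 and 0.14 in (129S1xB6)F1. In C57BL/6J they were 0.76, 0.97, 1.29, 0.69 and 0.50, against 0.050, 0.13, 0.010, 0.0026 and 1.12 in 129S1/SvImJ. The 129S1/SvImJ embryo G3 lay within the C57BL/6J range and the other 4 near 0. The strain difference was 0.58 ± 0.18 (1.50-fold) and did not pass (limma, adjusted p = 0.078). On the processed signals, with means of 0.28 in (B6x129S1)F1, 0.79 in (129S1xB6)F1, 1.48 in C57BL/6J and 0.51 in 129S1/SvImJ, it was 0.97 and passed (adjusted p = 0.043). Without G3 it was 0.80 and passed (limma, adjusted p = 0.00051), in 1 of 10 fits that each left out 1 array. Within slide 4, which holds G3, its sign was turned (-0.43), against 1.00, 0.84 and 0.49 within slides 1 to 3.

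Bmp2 fell in the hybrids relative to C57BL/6J, by a log2 difference of -0.62 ± 0.16 (1.54-fold lower, limma, adjusted p = 0.046). With Fst it made 2 of 8 genes called lower in that comparison, where 2.13% of all genes were called, 1.03% higher and 1.1% lower. Their arrays did not overlap for (B6x129S1)F1 against C57BL/6J, where 3.5% of all genes did not overlap and 1.58% lay below; for (129S1xB6)F1 against C57BL/6J, Fst did not overlap and Bmp2 did, where 2.25% did not overlap and 1.04% lay below. The Bmp2 call was lost with slide as a block (-0.62, adjusted p = 0.18), with the sample letter as a random block (-0.59, adjusted p = 0.15) and in 12 of 15 fits that each left out 1 array. The germ cell list moved in the same comparison: 7 of its 7 genes had values above 0 in F1 minus C57BL/6J and 2 were called, Dppa3 (1.12) and Ddx4 (1.08). The mean of that list ran from 1.87 to 2.34 in (B6x129S1)F1 and from 1.97 to 2.14 in (129S1xB6)F1, against 1.01 to 1.62 in C57BL/6J. The Sertoli list ran from 1.34 to 2.28 in (B6x129S1)F1 and from 0.72 to 1.81 in (129S1xB6)F1, against 0.51 to 1.84 in C57BL/6J. The part of either list in the result was not tested.

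Nr0b1, which encodes the X-linked nuclear receptor DAX1 that can oppose testis development when its dose is raised, lay far above the pool in every group. Its log2 ratio averaged 3.96 ± 0.70 in (B6x129S1)F1, 4.35 ± 0.41 in (129S1xB6)F1, 4.22 ± 0.27 in C57BL/6J and 3.72 ± 0.19 in 129S1/SvImJ (SD, n = 5 each). The C57BL/6J arrays, from 3.98 to 4.65, lay above the 129S1/SvImJ arrays, from 3.39 to 3.87. On the processed signals the strains overlapped, with 5.58 in D4 of 129S1/SvImJ above 5.48 in H2 of C57BL/6J. The deposited log2 ratios of these embryos, 5.52 and 5.46, overlapped as well. The strain difference of 0.50 ± 0.26 did not pass (limma, adjusted p = 0.4). It passed under none of 13 other settings, the compared arrays alone among them (limma, adjusted p from 0.088 to 0.58). The arrays of (B6x129S1)F1 ran from 2.94 to 4.88. The order of the groups for Nr0b1 differed from that for Fst, since the mean of (129S1xB6)F1 lay above that of C57BL/6J. F1 minus C57BL/6J was -0.07 ± 0.22, with a 95% confidence interval of -0.53 to 0.40.

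Msx1, a homeobox transcription factor downstream of BMP signals, was the only gene with a second reading. The brighter probe averaged -0.69 ± 0.32 in (B6x129S1)F1 and -0.33 ± 0.25 in (129S1xB6)F1, against -0.07 ± 0.29 in C57BL/6J and -0.44 ± 0.34 in 129S1/SvImJ (SD, n = 5 each). The other probe gave the same order, with -0.57, -0.35, -0.12 and -0.50 in these groups. The strain difference was 0.38 ± 0.18 by the brighter probe (limma, adjusted p = 0.34) and 0.38 ± 0.11 by the other (adjusted p = 0.052 over all probes tested), and neither passed.

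Foxl2 overlapped between all groups. Its log2 ratio averaged 0.15 ± 0.14 in (B6x129S1)F1, 0.09 ± 0.10 in (129S1xB6)F1, 0.018 ± 0.13 in C57BL/6J and 0.016 ± 0.14 in 129S1/SvImJ (SD, n = 5 each). The difference between the strains was 0.0022 ± 0.082, with a 95% confidence interval of -0.17 to 0.18 (limma, adjusted p = 1). Its net Cy5 signal, from 116 to 355, was well above background on all 20 arrays. Whether that signal came from Foxl2 RNA alone was not tested.

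Sprr2d, a small proline-rich protein of the cornified envelope family that marks XX gonads, spread widely among embryos. Its log2 ratio averaged 2.69 ± 0.90 in (B6x129S1)F1, 3.36 ± 0.39 in (129S1xB6)F1, 2.89 ± 0.31 in C57BL/6J and 3.09 ± 0.58 in 129S1/SvImJ (SD, n = 5 each). The strain difference of -0.20 ± 0.35 had a 95% confidence interval of -0.93 to 0.53 (limma, adjusted p = 0.9). Irx3, an Iroquois homeobox factor of the developing ovary, was well above background on 0 of 20 arrays in either channel, with a net Cy5 signal from 11.9 to 27.1, and no difference was tested.

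No gene of the 8 was called between the reciprocal crosses, that is for (B6x129S1)F1 minus (129S1xB6)F1, where 0.00839% of all genes (2 of 23849) were called. Of the 8 values, 7 were below 0, with a median of -0.35, and 0 of 8 had an unadjusted p under 0.05, against 2.71% of all genes. Against 129S1/SvImJ the hybrids had no gene of the 8 called either, where 1.68% of all genes were called; 0 of 8 had an unadjusted p under 0.05, against 12.7% of all genes, and the median was 0.03. In F1 minus mid-parent none was called, where 0.243% of all genes were; 2 of 8, Fst and Bmp2, had an unadjusted p under 0.05, against 9.38% of all genes, and the median was -0.19. The comparisons with the hybrids share arrays with each other and with the strain comparison.

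**Figure D2:**
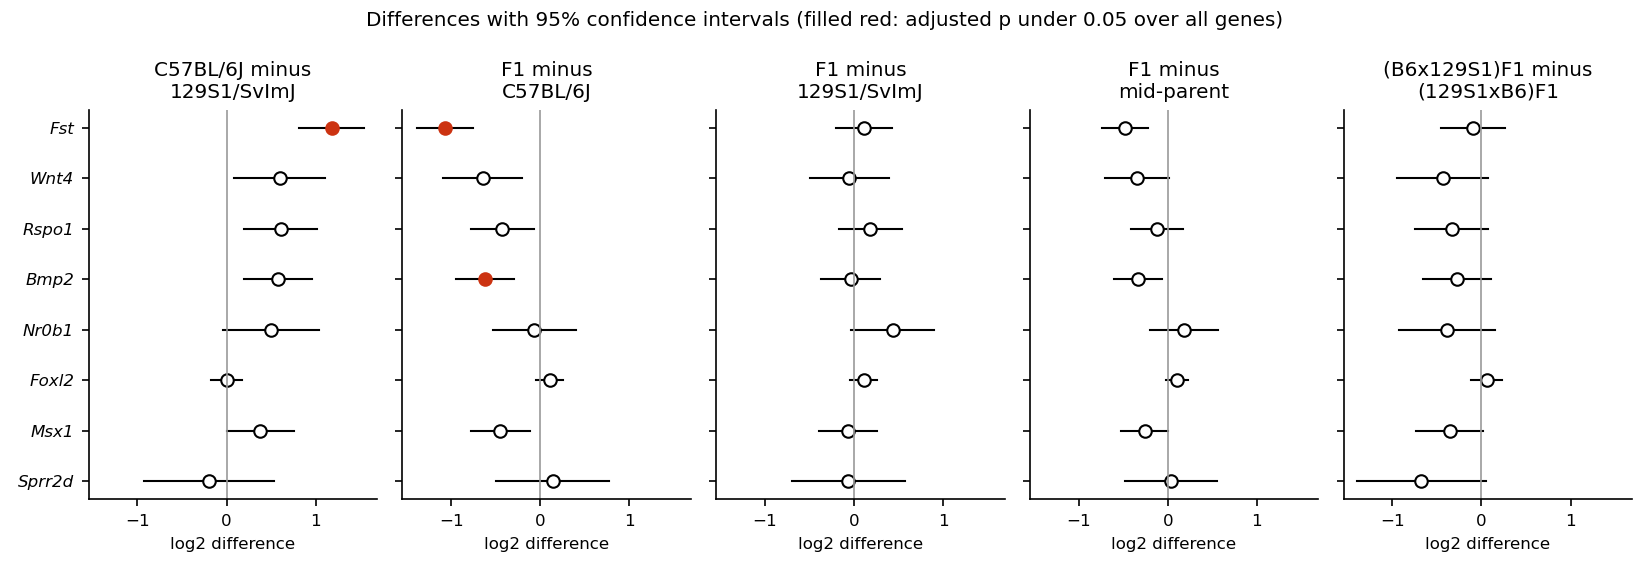
Log2 differences of the 8 tested genes with 95% confidence intervals of the limma fit, 1 panel per comparison; filled red points have an adjusted p under 0.05 over all genes. Fst is filled for C57BL/6J minus 129S1/SvImJ (1.18) and for F1 minus C57BL/6J (-1.07), and Bmp2 for F1 minus C57BL/6J only (-0.62).

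Within a group, embryos that were high for 1 gene of the WNT and BMP side tended to be high for the others. Deviations from the group means were correlated over the 20 arrays, as a description, since arrays share slides and the pool. Of 28 pairs of genes 25 had r above 0, with a median of 0.32. The highest values were 0.75 for Nr0b1 and Sprr2d, 0.73 for Rspo1 and Msx1, 0.71 for Bmp2 and Msx1, 0.66 for Wnt4 and Msx1, and 0.63 for Wnt4 and Bmp2. The value for Nr0b1 and Sprr2d was 0.46 without the 2 arrays farthest out.

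The same embryos lay at the end of the range for several genes. In (B6x129S1)F1 the embryo E1 was the highest for 7 of the 8 genes, all but Foxl2. In (129S1xB6)F1 M3 was the highest for 6 of the 8. In C57BL/6J K2 was the lowest for 5, Fst, Wnt4, Bmp2, Foxl2 and Msx1, and in 129S1/SvImJ G3 was the highest for 4, Wnt4, Rspo1, Bmp2 and Msx1.

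The Sertoli cell list ran the other way in these embryos. Its 4 genes are Sox9, the transcription factor that fixes the testis fate, Amh, the anti-Müllerian hormone, Dhh, the desert hedgehog ligand, and Cbln4, a secreted cerebellin. Their mean log2 ratio was 1.34 in E1, the lowest of (B6x129S1)F1, where the others ran from 1.86 to 2.28. It was 1.84 in K2, the highest of C57BL/6J, where the others ran from 0.51 to 0.88. In M3 it was 0.78, the second lowest of (129S1xB6)F1, where the lowest was 0.72 and the highest 1.81. M3 also had the highest mesonephros and duct mean of all 20 arrays, 0.54, where the others of its group ran from -0.33 to 0.19, and the part of those cells was not tested. In G3 it was -0.28, the lowest of 129S1/SvImJ, where the highest was 1.73. Deviations of the Sertoli mean correlated with those of Msx1 at r = -0.77, Rspo1 at -0.74, Bmp2 at -0.71, Fst at -0.68 and Wnt4 at -0.68 over 20 arrays. Without the 2 arrays farthest out on the Sertoli mean these were -0.64, -0.77, -0.48, -0.63 and -0.54. Nr0b1, Sprr2d and Foxl2 gave -0.33, -0.23 and -0.09. Dhh alone ranged from 0.26 to 5.97, the widest range of the 4. The tail somite count of each embryo was not used here, and its part in the pattern was not tested.

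**Figure D3:**
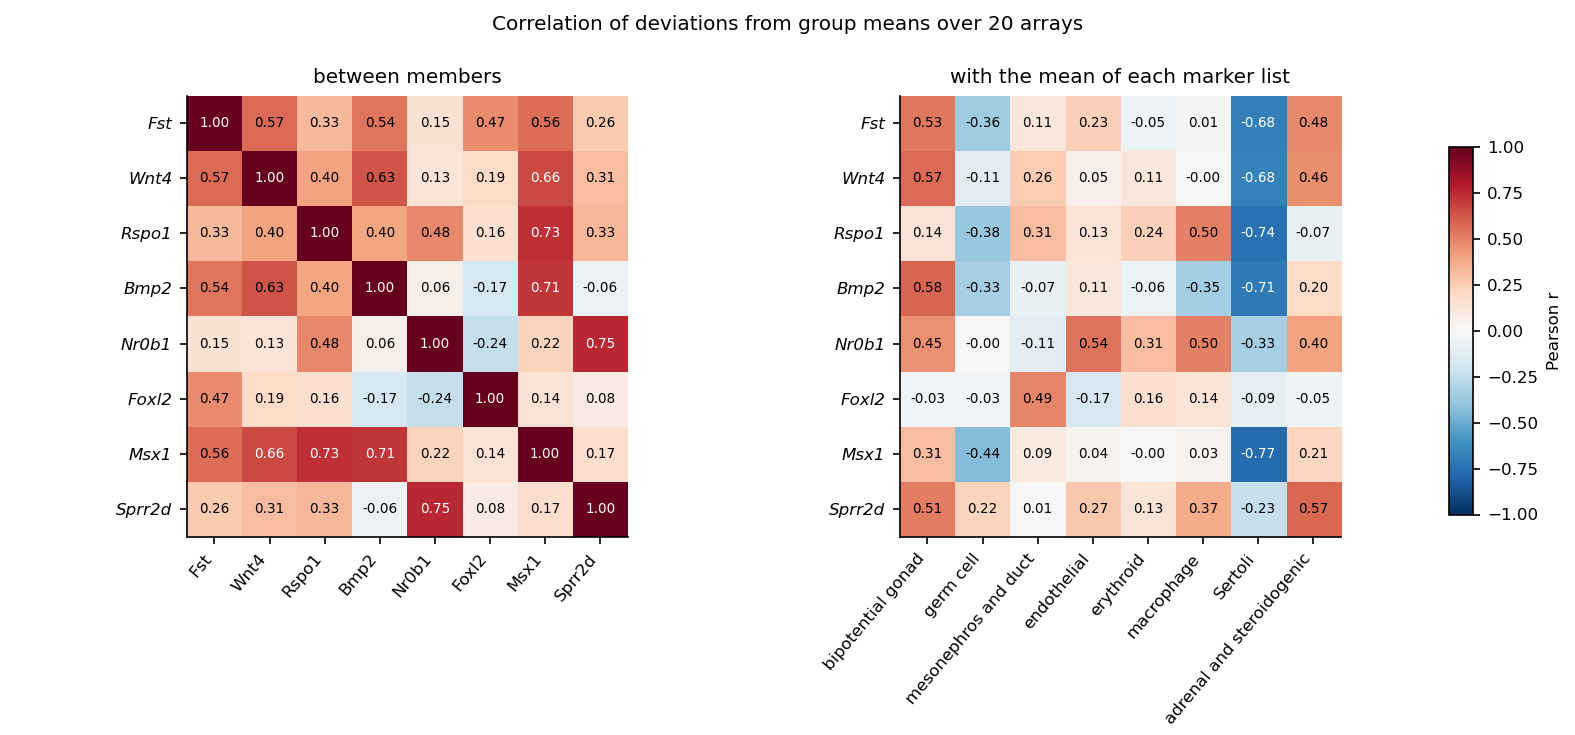
Pearson r of deviations from group means over 20 arrays, between the 8 tested genes (left) and between each gene and the mean of each marker list (right); red is positive, blue negative. The Sertoli column is negative for all 8 genes, from -0.77 for Msx1 to -0.09 for Foxl2.

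The genes whose ratios were most like each member over all 20 arrays, among 16606 genes above background on every array, were as follows. For Fst they were Rec8 (r = 0.90), Ccdc61 (0.90) and Unc93a (0.89). For Wnt4 they were Ccdc136 (0.91), Pax8 (0.87), a marker of the mesonephros list, and Aldh1b1 (0.86). Rspo1 went with Cc2d1b (0.92), Pgm1 (0.89) and Aff1 (0.88). Bmp2 went with Tnfrsf19 (0.90), AW551984 (0.90) and Lypd6 (0.90), and Msx1 with Kcnj12 (0.90), Cachd1 (0.89) and Sulf1 (0.86). The nearest to Nr0b1 were Atp2b3 (0.87), Cdc42bpa (0.86) and Abca7 (0.81). Those nearest to Foxl2 were Als2cl (0.92), Nkx2-4 (0.90) and Galr3 (0.89), and to Sprr2d Slc17a9 (0.88), 2210407C18Rik (0.81) and Cers4 (0.80). These are the highest of many values over 20 arrays and are given as descriptions.

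Among the partners of these genes, several of the WNT side rose in C57BL/6J relative to 129S1/SvImJ. The lists, here and below, were also chosen with earlier results of these data known, so their counts are descriptions. Of 14 WNT and R-spondin partners tested, 3 rose and 0 fell, and the median was 0.18, against 3.1% called higher over all genes. Sp5, a direct target of beta-catenin, was 2.34-fold higher (1.23 ± 0.25, limma, adjusted p = 0.004). Rnf43, a ubiquitin ligase that removes WNT receptors and is held off by R-spondins, was 1.73-fold higher (0.79 ± 0.18, adjusted p = 0.01). Lef1, a partner of beta-catenin on DNA, was 1.62-fold higher (0.69 ± 0.16, adjusted p = 0.011), while another probe of Lef1 gave 0.22. Sp5 fell 2.05-fold in F1 relative to C57BL/6J (-1.04 ± 0.21, adjusted p = 0.011), and its arrays ran from -0.11 to 1.30 in (B6x129S1)F1 and from 0.99 to 2.13 in (129S1xB6)F1, against 1.75 to 2.60 in C57BL/6J. Under 13 other settings the F1 call of Sp5 was lost in 3, the strain call of Lef1 in 2 and that of Rnf43 in 1.

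On the activin side, which follistatin opposes, 1 of 10 partners rose and 0 fell, where 3.1% of all genes rose. This was Inhbb, the beta B subunit of activin and inhibin, with a 1.99-fold higher level in C57BL/6J (0.99 ± 0.23, limma, adjusted p = 0.012) and a 1.92-fold higher level in F1 relative to 129S1/SvImJ (0.94 ± 0.20, adjusted p = 0.016), where 0.956% of all genes were called higher. The other probe of Inhbb gave 0.015 and 0.14 in these comparisons, and the calls were lost in 3 and 4 of 13 other settings. Of 16 BMP partners 0 rose and 1 fell, where 5.28% of all genes were called and 2.18% fell, so the count is near that of all genes. The gene was the ligand Bmp4, 1.47-fold lower in C57BL/6J (-0.55 ± 0.14, adjusted p = 0.027), a call lost in 3 of 13 other settings and in 5 of 10 fits that left out 1 array.

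Of 16 paralogs of the 9 genes tested, 1 was called, a share near the 5.28% of all genes. Nr0b2, which encodes the receptor SHP related to DAX1, rose 1.29-fold in C57BL/6J (0.36 ± 0.10, limma, adjusted p = 0.036), a call lost under 7 of 13 other settings and in 7 of 10 fits that left out 1 array. Irx5 was on the array but not tested, and Sprr2i was not found on it. The other Sprr2 paralogs tested lay between -0.13 and 0.21 with none called; near-identical Sprr2 genes may share a probe's signal.

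Of 10 other ovarian genes tested 3 rose, Lef1 among them, where 3.1% of all genes rose. Gng13, a G protein gamma subunit, showed the widest difference of these lists, 6.40-fold higher in C57BL/6J (2.68 ± 0.23, limma, adjusted p = 2.5e-07), with the F1 between the strains (F1 minus C57BL/6J -1.57 ± 0.20, F1 minus 129S1/SvImJ 1.11 ± 0.20). Cdkn1b, the cell cycle inhibitor p27, was 1.61-fold higher by its brightest probe (0.69 ± 0.12, adjusted p = 0.0016), while its other probes gave -0.053 and -0.049. Of 17 male pathway genes 2 rose and 0 fell, where 3.1% of all genes rose and 2.18% fell: Inhbb, which stands on both lists, and Gadd45g, a stress-response gene that acts upstream of Sry, which was 1.46-fold higher (0.55 ± 0.13, adjusted p = 0.016). For Sox9 the value was 0.93 ± 0.38 (adjusted p = 0.23), which did not pass.

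**Figure D4:**
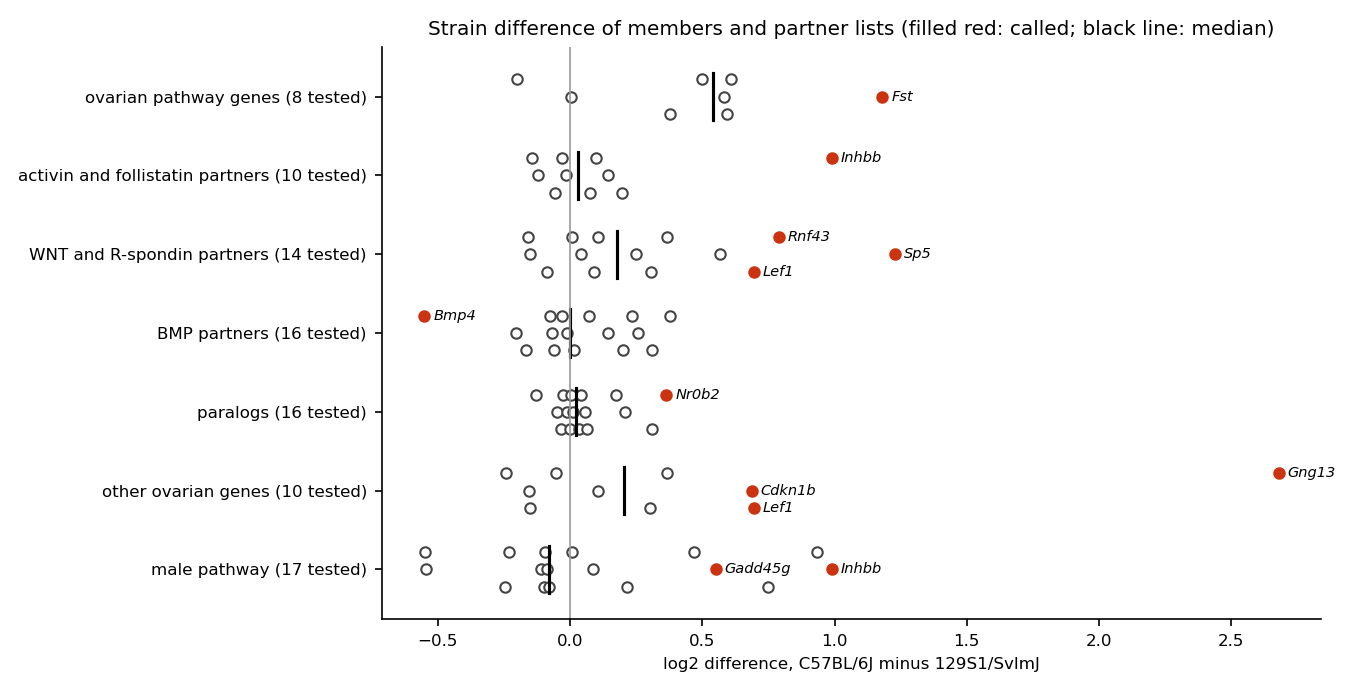
Log2 difference of C57BL/6J minus 129S1/SvImJ for the 8 tested members (top row) and for 6 partner lists, 1 point per gene tested, with the median as a black line; red points are called and named. Fst (1.18), Sp5 (1.23) and Gng13 (2.68) lie farthest to the right in their lists, and Bmp4 (-0.55) is the only one called to the left.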

How the data were processed

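Spot intensity per channel was read from the files of Agilent Feature Extraction 9.1.3.1, per the file headers, as mean signal minus median local background. The authors also deposited log2 values, found here to be Cy5 over Cy3, and, in the scanner files, processed intensity with dye normalization; both were used as alternatives. The dyes come from the labels, and no dye was swapped. Background was corrected with normexp (offset 50), then loess within arrays, in limma 3.58.1 (R 4.3.3). On 2 arrays, C57BL/6J replicate 3 and 129S1/SvImJ replicate 2, 3 and 8 spots with net signal below -50 distorted the background fit, so they were set aside; the fit with all spots and the fit without both arrays are alternatives added after seeing the data. The brightest probe stood for a gene. A linear model with 4 groups over 20 arrays was fitted with eBayes (16 residual degrees of freedom), with Benjamini-Hochberg adjustment over all 23849 genes per comparison and a call at adjusted p under 0.05. The fit was tested on simulated data. Of the gene probes, 22951 were named by RefSeq accession, 6659 by symbol and 3109 by synonym; 8455 kept the file's name.

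The 9 genes and all lists were chosen with earlier results of these data known. Genes named were the members, list genes called in a comparison or with the largest differences, and the 3 genes most like each member. Alternatives were offset 16, no background subtraction, processed or deposited values, scale normalization, other filters and probes, slide or letter as a block, the compared arrays alone, single slides, and each array left out. Embryos are separate gonad pairs, but litters are not marked as such, so p-values take arrays as independent. Their number limits the precision. Gonad RNA was always labelled with Cy5, so dye and sample effects of single probes cannot be told apart.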

Additional observations from a re-analysis of the deposited data

Results flagged for a closer look

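Of 36 sets of 5 arrays checked (9 probes in 4 groups), 6 held an array whose gap to the nearest other array was more than 0.71 of the range. For normal values chance gives this in about 1 in 20 sets. The sets share arrays and hold genes that correlate within groups, so no excess is read from the count. Embryo G3 of 129S1/SvImJ was such an array 3 times: Bmp2 was 1.12, where the others ran from 0.0026 to 0.13; Foxl2 was -0.22, where the others ran from 0.033 to 0.12; and the dimmer Msx1 probe was -0.10, where the others ran from -0.68 to -0.54. In the other embryo of that strain with such a value, A6, Nr0b1 was 3.39, where the others ran from 3.76 to 3.87. In the hybrids, Foxl2 was 0.40 in F2 of (B6x129S1)F1, where the others ran from 0.039 to 0.14, and Fst was -1.01 in M6 of (129S1xB6)F1, where the others ran from -0.49 to -0.37. M6 stood on slide 5 and had the lowest median net Cy5 signal of all 20 arrays, 85.7. The part of depth in these values was not tested.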

How the results depend on the processing

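The strain difference of Fst and its fall in F1 relative to C57BL/6J kept their call under all 13 other settings and in every fit that left out 1 array (1.05 to 1.35 and -1.24 to -0.95). Processed signals and deposited log2 ratios each called 2 ovarian pathway genes between the strains, the second being Bmp2, against 1 in the report; leaving out 1 array gave 1 to 3. In F1 minus C57BL/6J, 1 of them in place of 2 was called with no background subtraction, scale normalization, no filter, slide as a block, letter as a random block, all spots in the background fit, or without both arrays whose background fit was disturbed; leaving out 1 array gave 1 to 3. In F1 minus mid-parent, leaving out 1 array gave 0 to 1. The cause was not tested.

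Counts over all genes moved more. F1 minus C57BL/6J had 324 genes called with slide as a block, 271 with the letter block and 284 without both disturbed arrays, in place of 509 (314 to 542 with 1 array left out). F1 minus 129S1/SvImJ had 223 and 266 with these blocks, in place of 400 (265 to 445). F1 minus mid-parent had 15 with no background subtraction, 20 with slide and 34 with letter, in place of 58 (34 to 71). The F test had 535 with letter and 542 without both disturbed arrays, in place of 873. The reciprocal crosses had 1 with probes above background on all arrays, with the letter block or with the compared arrays alone, and 0 in limma with all spots, in place of 2 (1 to 4). Within slide 3 the median of the 8 genes was -0.096 in F1 minus C57BL/6J and 0.21 in F1 minus 129S1/SvImJ, and within slide 4 the last was -0.35. No paired analysis was possible because, as far as replicate numbers go, these follow accession order only and match no embryos across groups. Arrays could be matched by slide: slides 2 to 4 hold 1 array of each group, and the slide block and the values within slides compare arrays that way. Fst and Bmp2 were read by dim probes, and over the 13 settings Fst ran from 0.52 to 1.65 between the strains and Bmp2 from 0.21 to 0.97.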
